A study of Mus musculus with 2 samples.

Results

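Plasmacytoid dendritic cells of the rib repair callus are described here from droplet single-cell RNA sequencing (scRNAseq) at 4 days post injury (dpi). Cells were chosen by their own unique molecular identifier (UMI) counts. A member had at least 200 detected genes, under 10% of its UMIs on mitochondrial genes, at least 2 UMIs of *Siglech*, at least 1 UMI among *Ccr9*, *Cox6a2*, *Klk1* and *Bst2*, and under 2% of its UMIs on *Col1a1*, *Col1a2* and *Col3a1*. The rule found 75 members, 44 control and 31 *Smo* cKO cells, among 19564 cells that passed the gene and mitochondrial limits and 21259 cells in all. The control callus came from Sox9:CreER;R26:tdT;Smof/+ mice, in which 1 *Smo* allele is floxed, and the *Smo* cKO callus from Sox9:CreER;R26:tdT;Smof/f mice, in which both are. The study used male and female mice of 8 to 12 weeks and 3 tamoxifen injections on consecutive days from day -7 to day -5, followed by a 3 mm rib resection on day 0. Cells of 3 animals were pooled for each genotype, so that each genotype is 1 library and the 2 libraries give no replicate. The Cre transgene acts in Sox9+ lineage cells, which include periosteal progenitors, and the members are hematopoietic cells beside them. *Ptprc*, the pan-leukocyte gene, had a UMI in 30 of 44 control and 27 of 31 *Smo* cKO members. No test compares the genotypes, and all intervals given are 95% intervals that cover counting error only.

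Plasmacytoid dendritic cells are bone marrow derived cells that circulate and enter inflamed tissue. They sense nucleic acids in the endosome through Toll-like receptors and are known for fast secretion of type I interferon. The transcription factor E2-2, encoded by *Tcf4*, and IRF8 maintain their identity, and in the mouse the lectin SIGLEC-H and the tetherin BST2 on their surface are used to find them.

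In all, 10747 control cells gave 105367110 UMIs and 10512 *Smo* cKO cells 112700220 UMIs. Members were shallower than the rest. They had a median of 2291 UMIs and 969 detected genes in the control and of 3351 UMIs and 1365 genes in the *Smo* cKO library, while the other kept cells had medians of 8407 and 9116 UMIs. Of the kept cells, 55 control and 33 *Smo* cKO cells had at least 2 UMIs of *Siglech*, and each of them also had a UMI of another listed marker. The collagen limit then left out 11 control and 2 *Smo* cKO cells. These had from 2.27% to 4.92% collagen UMIs in the control and 2.26% and 2.57% in the *Smo* cKO library, while the highest member lay at 1.89% and 1.96%. Just inside the *Siglech* limit were 7 control and 6 *Smo* cKO members with exactly 2 UMIs, of which 7 and 5 had a UMI of *Irf8*. Just outside it were 13 and 19 cells with 1 UMI that met the rest of the rule, of which 11 and 10 had one. The libraries shared 613 cell barcodes. None of the control members and 1 *Smo* cKO member had a barcode found in the other library, and no barcode was a member in both.

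The members fell into 2 kinds by the markers of 12 other cell types. No doublet caller was run. In 37 of 44 control and 21 of 31 *Smo* cKO members, none of these marker lists reached 20 UMIs, and the highest list in any of these cells, that of connective tissue, had 7 UMIs among control and 10 among *Smo* cKO members. These are called single-profile members. In the other 7 control and 10 *Smo* cKO members, a list of another cell type had at least 20 UMIs, and these are called mixed-profile members. The limit of 20 UMIs was set after the values were seen. In the control, connective markers led in 3 mixed-profile members, and the macrophage, neutrophil, erythroid and osteoclast lists led in 1 each. In the *Smo* cKO library, connective markers led in 4, macrophage markers in 4, and the neutrophil and osteoclast lists in 1 each. Mixed-profile members were deep, with a median of 6931 UMIs among control and 8379.5 among *Smo* cKO cells, against 2210 and 3198 in single-profile members. The limit of 20 UMIs was not scaled to depth, so deeper cells reach it more easily. Its part in this gap was not tested. Mixed-profile members held 39.7% of the members' UMIs in the control library and 63.1% in the *Smo* cKO library, where the 5 deepest members alone held 51.1%. Sums over all members include these cells. The profile of the cells is given from the 58 single-profile members, which hold 82804 control and 68490 *Smo* cKO UMIs. Summed lists compared between the libraries are given for both sets. Single genes are given for both sets or for 1 of them, and values over all members include the mixed-profile cells.

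**Figure D1:**
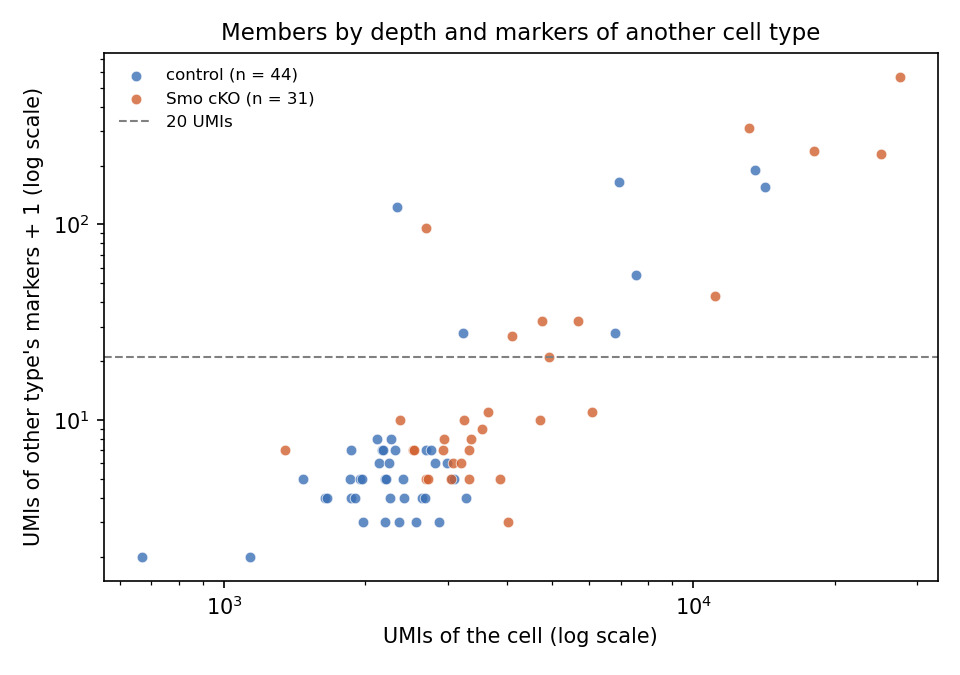
Each point is 1 member, by its UMIs on the x axis and, on the y axis, 1 plus the UMIs of the other cell type whose markers were highest in it, both on log scales; the dashed line marks 20 UMIs. Most cells of both libraries form 1 group below the line, and the 7 control and 10 *Smo* cKO cells on or above it reach 14235 and 27487 UMIs.

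The 5 genes of the rule are given as a description, since they chose the cells. Levels are given as CPM, that is, UMIs of the gene summed over the cells, per 1000000 of their UMIs. *Siglech*, which encodes an endocytic lectin (ENSMUSG00000051504, chr7:55768178-55778925, plus strand), had 163 UMIs in 37 of 37 control and 108 UMIs in 21 of 21 *Smo* cKO members, or 1968 and 1577 CPM, against 0.750 and 0.334 CPM in the other kept cells. *Bst2*, which encodes tetherin (ENSMUSG00000046718, chr8:71534255-71537456, minus strand), had 3997 CPM in control and 3285 CPM in *Smo* cKO members. *Bst2* is also induced by interferon in other cell types, and it stood at 61.3 and 275 CPM in the other kept cells. *Ccr9*, the receptor for the gut and thymus chemokine CCL25 (ENSMUSG00000029530, chr9:123678439-123784330, plus strand), was found in 27 of 37 and 16 of 21 cells, at 749 and 584 CPM. *Cox6a2*, a subunit of cytochrome c oxidase otherwise known from heart and skeletal muscle (ENSMUSG00000030785, chr7:128205435-128206387, minus strand), was found in 27 and 18 cells, at 1123 and 1533 CPM. *Klk1*, a kallikrein protease (ENSMUSG00000063903, chr7:44225360-44229618, plus strand), was found in 21 and 11 cells, at 773 and 1037 CPM. Its neighbor *Klk1b27* belongs to the same family of near-identical genes, and how reads were split between them is uncertain. In single cells, as UMIs per 10000 UMIs of the cell, *Siglech* ranged from 6.98 to 40.7 with a median of 19.0 among control cells and from 4.24 to 30.6 with a median of 16.9 among *Smo* cKO cells. *Bst2* ranged from 12.1 to 81.4 with a median of 39.7 among control cells and from 7.93 to 57.2 with a median of 32.8 among *Smo* cKO cells. Every single-profile member had both, while *Klk1* was at 0 in some cells of each library.

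The promoters of 4 of these genes are shown because the cells were chosen by them, with the 250 bases before the RefSeq start on the plus or minus strand of GRCm38.p6, 5′ to 3′. *Cox6a2* is not among the promoters used here. Capitals mark CAGGTG or, on the other strand, CACCTG, letters of the E-box that E proteins such as E2-2 bind.
*Siglech*, chr7:55767934-55768183, plus strand: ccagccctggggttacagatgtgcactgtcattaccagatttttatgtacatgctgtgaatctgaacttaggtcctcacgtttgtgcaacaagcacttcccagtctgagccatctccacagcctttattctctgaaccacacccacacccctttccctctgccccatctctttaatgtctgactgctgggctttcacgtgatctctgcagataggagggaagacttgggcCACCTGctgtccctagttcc
*Ccr9*, chr9:123766961-123767210, plus strand: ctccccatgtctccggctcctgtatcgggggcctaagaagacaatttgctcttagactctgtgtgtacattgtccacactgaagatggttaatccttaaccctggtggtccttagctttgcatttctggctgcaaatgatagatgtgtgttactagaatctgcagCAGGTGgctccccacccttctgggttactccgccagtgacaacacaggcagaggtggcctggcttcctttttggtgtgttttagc
*Klk1*, chr7:44225110-44225359, plus strand: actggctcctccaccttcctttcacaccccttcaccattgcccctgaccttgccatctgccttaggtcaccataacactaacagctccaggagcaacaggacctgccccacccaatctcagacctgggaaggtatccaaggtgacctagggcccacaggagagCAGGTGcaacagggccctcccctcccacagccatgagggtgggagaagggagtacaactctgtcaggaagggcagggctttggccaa
*Bst2*, chr8:71537473-71537722, minus strand: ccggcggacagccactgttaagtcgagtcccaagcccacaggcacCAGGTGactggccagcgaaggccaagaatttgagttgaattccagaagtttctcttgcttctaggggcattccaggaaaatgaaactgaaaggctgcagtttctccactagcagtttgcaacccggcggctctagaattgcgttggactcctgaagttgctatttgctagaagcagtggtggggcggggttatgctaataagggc

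Each of the 4 windows held these letters once. Of 27025 promoter windows of this length, 1 for each gene symbol, 17.1% held them. CAGCTG, another E-box, and GAGGAA, the core that PU.1 and SPI-B bind, were searched on both strands as well, and neither was in the 4 windows, while 12.8% and 23.1% of all windows held them. CAGCTG reads the same on both strands, and GAGGAA reads TTCCTC on the other. Each motif was counted on its own. Of the 15 genes furthest above the other kept cells over all members, 9 had a window, of which 3 held CAGGTG, namely *Siglech*, *Ccr9* and *Klk1* themselves, 1 held CAGCTG and 4 held GAGGAA. The *Ccr9* window lies within the span of the gene given above, upstream of its RefSeq start. A match describes the letters only.

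Markers that the rule did not use carried the label. Of 12 plasmacytoid dendritic markers outside the rule, single-profile members had a median of 5 with a UMI in each library, and 36 of 37 control and 20 of 21 *Smo* cKO cells had at least 3. Among the other kept cells, 2.99% and 4.40% had at least 3, although they were deeper. *Irf8*, a transcription factor that dendritic cells need, was found in 37 of 37 and 19 of 21 cells at 2041 and 2073 CPM, against 9.79 and 13.1 CPM in the other kept cells. With each cell thinned to 1000 UMIs, *Irf8* had a UMI in 86.1% (70.5 to 95.3) of 36 control and 76.2% (52.8 to 91.8) of 21 *Smo* cKO members, and in 2.65% and 3.35% of 2000 other kept cells drawn from each library. *Tcf4* had 507 and 511 CPM against 119 and 135 CPM in the other kept cells, many of which use it too. Thinned, it was found in 33.3% (18.6 to 51.0) of 36 control and 28.6% (11.3 to 52.2) of 21 *Smo* cKO members, and in 11% and 11.2% of the other kept cells. *Spib*, an ETS factor of B cells and plasmacytoid dendritic cells, had 229 and 189.8 CPM against 0.298 and 0.217 CPM, and *Bcl11a*, a zinc finger factor upstream of *Tcf4* in this lineage, 266 and 175 CPM against 0.759 and 0.642 CPM. *Runx2*, which is known for osteoblasts and also serves the exit of these cells from bone marrow, had 289.8 and 161 CPM against 59.5 and 55.5 CPM. Of the 12 listed plasmacytoid dendritic transcription factors, 9 reached 100 CPM and 8 of these were at least 2-fold above the other kept cells in both libraries, against 27.3% of all genes at 100 CPM and 16.9% when all members are summed. Factors of conventional dendritic cells were low. *Batf3* and *Zbtb46* had no UMI in any of the 75 members, which allows up to 21.8 and 16.2 CPM (3 counts), and *Id2*, the antagonist of E proteins, had 48.3 and 73.0 CPM in single-profile members against 641 and 700.4 CPM in cells that met a rule for conventional dendritic cells.

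**Figure D2:**
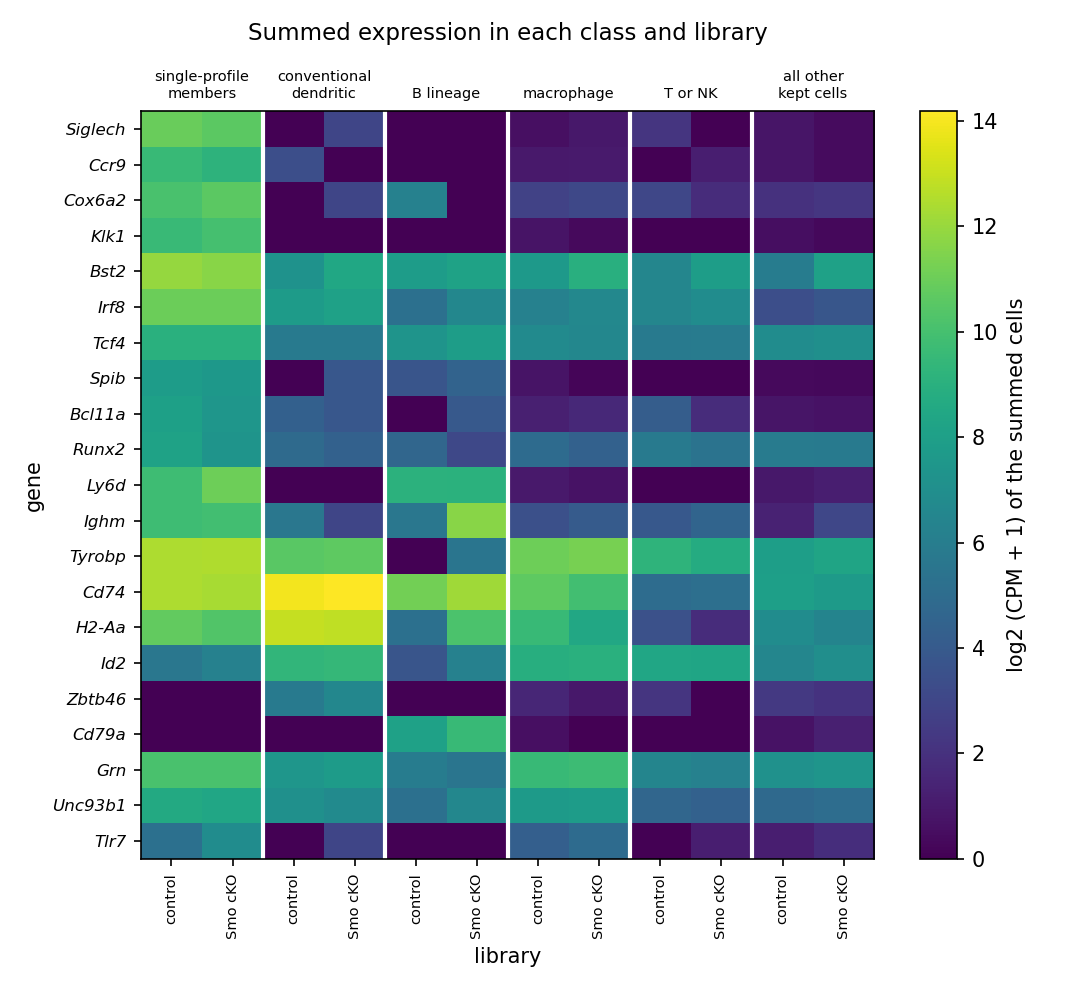
Color gives log2 (CPM + 1) for each gene (rows) in summed cells of each class and library (columns); the classes were set by UMI rules, and B lineage cells number 7 for control and 29 for *Smo* cKO. *Siglech*, *Klk1*, *Spib* and *Bcl11a* stand out in the members, *H2-Aa* and *Cd74* are brightest in conventional dendritic cells, and *Cd79a* is dark in the members.

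All 21 of the 26 listed surface and effector genes that reached 100 CPM were at least 2-fold above the other kept cells in both libraries, as were 27.3% of all genes. The 15 genes furthest above the other kept cells, at 100 CPM or more in both libraries, were *Siglech*, *Klk1b27*, *Gm21762*, *Klk1*, *Cd209d*, *Cd300c*, *Cd8a*, *Ly6d*, *Ccr9*, *Cdh1*, *Rnase6*, *Spib*, *Fcrla*, *Mctp2* and *Klra17*. Folds are the lower of the 2 libraries, and a gene with under 3 UMIs in the other kept cells was given 3. *Ly6d*, a surface protein of lymphoid progenitors, stood 1017-fold above them at 869.5 and 2161 CPM, and *Rnase6*, a secreted ribonuclease, 794-fold at 725 and 919.8 CPM. *Ly6d* was not particular to the members, since cells that met a rule for the B lineage had 548 and 540 CPM of it. Conventional dendritic cells had 48.6 and 80.8 CPM of *Rnase6*. *Cd209d*, a C-type lectin, had 326 and 146 CPM, *Cd300c*, an activating receptor, 242 and 146 CPM, and *Klra17*, a Ly49 family receptor, 169 and 117 CPM. *Cdh1*, which encodes E-cadherin, had 12 UMIs in 11 control and 9 UMIs in 6 *Smo* cKO cells. *Cd8a* was patchy, with 14 UMIs in 7 of 37 control and 30 UMIs in 8 of 21 *Smo* cKO members. Genes of the *Klk1*, Cd209 and Klra families have close copies, so their counts are uncertain. With all members in place of single-profile members, the 15 genes also held *Cox6a2*, *Cd7*, *Cd8b1*, *Bcl11a*, *Sla2* and *Gm5547*, and no longer held *Cd209d*, *Cd300c*, *Cdh1*, *Spib*, *Fcrla*, *Mctp2* and *Klra17*. Leaving out mitochondrial and ribosomal protein genes by the start of their symbols, which kept *Fau*, a ribosomal protein gene with another name, the 10 genes with the highest CPM were *Malat1*, *Fth1*, *Tmsb4x*, *Fau*, *Tyrobp*, *Cd74*, *Plac8*, *H3f3b*, *B2m* and *Ftl1*. *Plac8*, a small cysteine-rich protein of leukocytes, had 4939 and 5650.5 CPM against 215 and 274 CPM in the other kept cells.

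The machinery of endosomal sensing was seen in part. *Tlr7*, the receptor for single-stranded RNA, had 3 UMIs in 3 of 37 control and 8 UMIs in 6 of 21 *Smo* cKO members, or 36.2 and 117 CPM, against 1.31 and 2.59 CPM in the other kept cells. *Tlr9*, the receptor for CpG DNA, had no UMI in any of the 75 members and was at 0.0288 and 0.0632 CPM in the other kept cells. *Unc93b1*, which carries these receptors to the endosome, had 386 and 336 CPM against 27.3 and 32.8 CPM. *Grn* and *Ctsl*, a cofactor and a protease of endosomal sensing, had 1087 and 1109.7 CPM and 1002 and 964 CPM, against 145 and 167 CPM and 236 and 249 CPM. Cells that met a rule for macrophages had 744 and 848 CPM of *Grn* and 590 and 685 CPM of *Ctsl*. They had 208 and 229 CPM of *Unc93b1* and 18.8 and 30.0 CPM of *Tlr7*. The endosomal sensing list summed to 2377 and 2712 CPM in macrophages and to 3587 and 3913 CPM in single-profile members. *Pld4*, an endosomal nuclease, had 568 and 599 CPM in single-profile members against 7.66 and 11.3 CPM in the other kept cells. Of the 17 genes of this list, 7 reached 100 CPM and 6 of them were at least 2-fold above the other kept cells in both libraries, against 27.3% of all genes. *Tyrobp*, which encodes the adaptor DAP12 that signals for SIGLEC-H, was found in every member, at 5579 and 5796 CPM in single-profile members. It had 1497 and 1623 CPM in conventional dendritic cells and 2116 and 2465 CPM in macrophages. *Fcer1g*, a related adaptor, had 652 and 1066 CPM against 145 and 231 CPM in the other kept cells, and the kinase gene *Syk* 145 and 117 CPM against 14.0 and 13.7 CPM. All 7 of the 11 receptor signalling genes that reached 100 CPM met the same condition.

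Single-profile members carried MHC class II transcripts below the level of conventional dendritic cells. *Cd74*, the invariant chain, had 5483 and 5154 CPM, against 15872 and 18594 CPM in conventional dendritic cells. *H2-Aa* had 1739 and 1270.3 CPM against 7975 and 7361 CPM, and *H2-Ab1* had 1171 and 1139 CPM against 7129 and 7435 CPM. The rule for conventional dendritic cells asked for 5 UMIs of *H2-Ab1*, so the level of this gene there was set by the choice of cells. That choice may also raise *Cd74* and *H2-Aa* there, so the comparison is a description. Costimulation was scarce. *Cd80* had 0 and 1 UMI, *Cd86* 0 and 2, *Cd40* 1 and 0, and *Ccr7*, the receptor that leads mature dendritic cells to lymph nodes, 0 and 2 in the control and the *Smo* cKO library. A count of 0 allows up to 36.2 CPM in the single-profile control members. In UMIs per 10000, *Cd74* ranged from 0 to 167 with a median of 44.9 among control cells and from 0 to 119 with a median of 44.5 among *Smo* cKO cells.

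Lymphoid genes accompanied the myeloid ones. *Ighm*, the heavy chain of IgM, had 72 UMIs in 29 of 37 control and 66 UMIs in 20 of 21 *Smo* cKO members, and after thinning a UMI in 47.2% (30.4 to 64.5) of 36 control and 71.4% (47.8 to 88.7) of 21 *Smo* cKO members against 0.350% and 0.950% of the other kept cells. *Il7r*, the IL-7 receptor chain of lymphoid cells, had 399 and 482 CPM against 7.07 and 9.15 CPM, *Cd7* 592 and 686 CPM against 1.68 and 1.40 CPM, and *Dntt*, the terminal transferase of lymphocyte precursors, 109 and 117 CPM against 0.288 and 0.298 CPM. Most B cell markers were at 0. *Cd79b*, a chain of the B cell receptor, had 3 UMIs in 2 control members and none in *Smo* cKO members. *Cd79a*, *Pax5*, *Rag1* and *Rag2* had no UMI in any of the 75 members, while cells that met a rule for the B lineage had 280.0 and 759 CPM of *Cd79a*, which that rule used. *Igkc*, the kappa light chain, was uneven. It had 37 UMIs in 8 control single-profile members, 25 of them in 1 cell, and 32 UMIs in 6 *Smo* cKO ones. All 6 of the 16 listed lymphoid genes that reached 100 CPM were at least 2-fold above the other kept cells in both libraries, against 27.3% of all genes.

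The secretory pathway, which these cells need for interferon, did not stand out as a list. Of its 22 genes 20 reached 100 CPM, and 2 of these, *Xbp1* and *Herpud1*, were at least 2-fold above the other kept cells in both libraries, against 27.3% of all genes. *Xbp1*, a transcription factor of secretory cells, had 519 and 453 CPM against 102 and 118 CPM, and *Sec61b*, of the protein channel of the endoplasmic reticulum, 1389 and 1270.3 CPM against 1494 and 1432 CPM. Among homing genes, *Selplg*, which encodes the selectin ligand PSGL-1, had 556 and 715 CPM against 10.6 and 12.6 CPM in the other kept cells. *Ccr2*, the receptor for CCL2, had 8 and 9 UMIs and *Cxcr3* 3 and 1. *Cx3cr1*, *Cmklr1* and *S1pr1* had none in single-profile members. All 6 of the 16 trafficking genes that reached 100 CPM were at least 2-fold above the other kept cells in both libraries, as were 5 of 6 cytokine receptor genes, to be read against the same share of all genes. *Flt3*, the receptor for the growth factor of dendritic cells, had 5 and 6 UMIs, and *Ifnar1* and *Ifnar2*, the chains of the type I interferon receptor, had 229 and 277 CPM and 302 and 307 CPM.

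None of the 7 interferon genes examined had a UMI in the members. *Ifna1*, *Ifna2*, *Ifna4*, *Ifna5*, *Ifnb1*, *Ifnl2* and *Ifnl3* were at 0 in 44 control and 31 *Smo* cKO members, which allows up to 21.8 and 16.2 CPM, and 6.82% and 9.68% of cells with a UMI, which at this depth does not limit the share of cells that use the gene. The interferon alpha genes are close copies, and reads that fit several of them may not have been counted. *Tnfsf10* (TRAIL), *Gzmb* (granzyme B) and *Cxcl9* also had none. *Il12a* had 2 UMIs in 2 of 37 control and 8 UMIs in 4 of 21 *Smo* cKO members, and *Il12b* none. *Ccl4*, an inflammatory chemokine, had the most UMIs of the listed ligands. It had 54 UMIs in 13 of 37 control and 51 UMIs in 8 of 21 *Smo* cKO members, and ranged up to 12 UMIs in a control and 36 UMIs in a *Smo* cKO cell. Cell cycle genes were nearly silent. Leaving out *Hmgb2*, which resting cells also use, 33 of 37 control and 15 of 21 *Smo* cKO single-profile members had no UMI of the other 18 genes, and 1 *Smo* cKO cell had 24 of the 30 UMIs in that library. Among the deeper other kept cells, 38.8% and 46.4% had at least 3 such UMIs.

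Single-profile members differed from one another most in *Malat1*, *Fth1*, *Cd74*, *Ccl4* and Actb, ranked by the lower spread of the 2 libraries. The spread was measured as the variance of a gene's UMIs over the cells relative to that of counting alone at each cell's depth, which is 1 for counting alone. Over 417 genes with at least 20 UMIs in each library, its median was 1.12 for control and 1.24 for *Smo* cKO cells. *Siglech* was near this median, at 1.02 and 1.05, though its lower end was set by the rule. *Irf8* was at 1.61 and 2.19 and *Ighm* at 1.32 and 1.04. *Cd74* reached 7.06 and 8.76, *Ly6d* 3.53 and 11.4, and *Ccl4* 6.76 and 12.8. *Ly6d* was present in 20 of 37 control and 12 of 21 *Smo* cKO cells. In the *Smo* cKO library the cells with *Ly6d* had more *Cd8a* than those without, 623 against 149 CPM, a log2 ratio of 2.06 (0.53 to 4.04). In the control the order was the other way, 133 against 213 CPM, with an interval of -2.49 to 1.03. Other genes were compared in the same way. Log2 ratios of cells with *Ly6d* over those without follow, for control and then *Smo* cKO cells. *Ly6c2* had 0.62 (-0.37 to 1.67) and 0.91 (0.25 to 1.61). *Igkc* had -1.91 (-3.18 to -0.78) and 0.50 (-0.64 to 1.74), and *Tyrobp* -0.09 (-0.36 to 0.18) and -0.34 (-0.63 to -0.05). The remaining genes compared had intervals that held 0 in both libraries. The split was made after the values were seen and is a description.

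**Figure D3:**
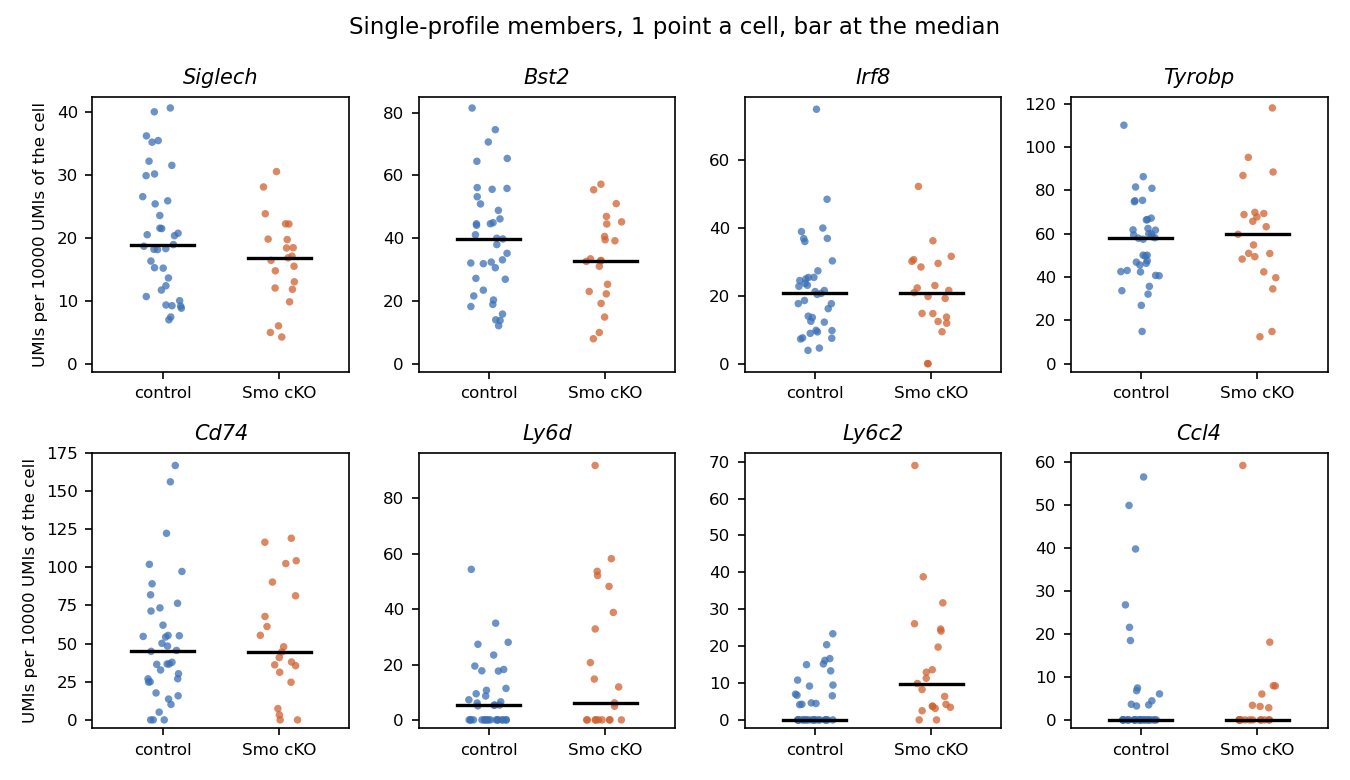
Each point is 1 single-profile member (37 control, 21 *Smo* cKO), the y axis gives UMIs of the gene per 10000 UMIs of the cell, and the bar is the median. The libraries overlap for every gene shown, *Ly6d* and *Ly6c2* reach higher in the *Smo* cKO library, and most cells have no *Ccl4*.

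Under the rule as given, the share of members was not shown to differ between the libraries. Members made up 0.438% of 10057 kept control cells (0.318 to 0.587, Clopper-Pearson) and 0.326% of 9507 kept *Smo* cKO cells (0.222 to 0.463). The *Smo* cKO share minus the control share was -0.11 percentage points (-0.29 to 0.06, Newcombe). The paper also left out cells with more than 2000 detected genes, and among cells within that limit the shares were 0.947% and 0.674%. Single-profile members made up 0.368% and 0.221%, a log2 ratio of -0.74 (-1.58 to 0.07). The size of the gap depended on the rule. For all members the log2 ratio was -0.42 as given and -0.11 with 1 UMI of *Siglech* allowed. It was -0.66 without the collagen limit (0.547% and 0.347%) and -0.70 over kept cells with a UMI of *Ptprc* (3.24% and 2%). No interval was computed for these alternatives, so whether a difference would be shown under them is not given. With cells of 3 animals pooled in each library, differences between animals, dissections and libraries cannot be told apart from the genotype in this or any later value. *Smo* itself was at the limit of detection. It had no UMI in the control members and 1 in the *Smo* cKO members, and the limit that 0 counts allow in the control, 21.8 CPM, lies above the 17.3 CPM of the other kept control cells, so its loss could not be checked here. The other kept *Smo* cKO cells had 10.7 CPM. The *tdTomato* transcript, *Ptch1*, *Gli1* and *Gli2* had no UMI in any member, while *Gli3* had 0 and 7 UMIs, 6 of them in 1 cell, and *Sox9* 1 and 4. The list of 10 Hedgehog and reporter genes summed to 2 and 12 UMIs in all members, a log2 ratio of 2.15 (-0.02 to 5.35), and to 1 and 0 in single-profile members.

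Over all members, 1595 genes reached 100 CPM in at least 1 library. Of these, 205 (12.9%) were 2-fold or more above the control in the *Smo* cKO library and 117 (7.34%) 2-fold or more below it. Of these, 169 and 89 had an interval that left out 0. Over single-profile members, 261 (15.8%) and 118 (7.16%) of 1648 genes were, and 106 and 29 had such an interval. The sets shared 74 higher and 44 lower genes. The median log2 ratio was 0.04 over all members and 0.12 over single-profile members, and scaled by the latter the counts there were 222 and 159. In all members, the 8 highest ratios were those of *S100a9*, *Spp1*, *Thbs4*, *Tuba1a*, *Cks1b*, *Ass1*, *Isg15* and *Il1rl1*. *S100a9*, a neutrophil protein, had 1 UMI among control and 64 among *Smo* cKO members, 98.4% of them in 1 mixed-profile member, and *Thbs4*, a tendon matrix protein, had 84.8% of its 46 UMIs in 1 cell. The lowest were *Acp5*, *Yy1*, *Rabgap1l*, *Slc38a1*, *Myo5a*, *Becn1*, *Hmgn5* and *Stk4*. *Acp5*, an osteoclast enzyme, had 98.6% of its 73 control UMIs in 1 mixed-profile member, whereas *Slc38a1*, an amino acid transporter, had 35 UMIs in 23 of 44 control and 9 UMIs in 6 of 31 *Smo* cKO members, a log2 ratio of -2.39 (-3.64 to -1.31). *Stk4*, the Hippo pathway kinase MST1, had 23 UMIs in 18 of 44 control and 7 UMIs in 6 of 31 *Smo* cKO members, a log2 ratio of -2.15 (-3.61 to -0.88).

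In single-profile members, the highest ratios were those of *Cxcl2*, *Cxcl3*, *Clec4e*, *Spp1*, *Ptp4a3*, *Thbs1*, *Tmx1* and *Cd14*. For 6 of these, all but *Ptp4a3* and *Tmx1*, over 80% of the *Smo* cKO UMIs lay in 1 cell. The cell richest in *Cxcl2*, a *Smo* cKO cell of 6087 UMIs, held 349 of 355 *Cxcl2* UMIs, all 41 of *Cxcl3*, all 44 of *Il1b*, 29 of 32 of *Ccl3*, 36 of 51 of *Ccl4* and 23 of 27 of *Lyz2*, with 9 UMIs of *Siglech* and 9 of *Irf8*. CXCL2, CXCL3 and IL-1β are inflammatory proteins of activated myeloid cells, and *Lyz2* encodes their lysozyme. Without this cell, *Cxcl2* had 18 and 6 UMIs, and the log2 ratio of *Ccl4* went from 0.19 (-0.39 to 0.77) to -1.44 (-2.37 to -0.59). The cell was singled out after its values were seen, and whether it holds 1 cell or several was not tested. *Ptp4a3*, a phosphatase, and *Tmx1*, a thioredoxin-like protein of the endoplasmic reticulum, were spread over cells. *Ptp4a3* had 1 UMI in 1 of 37 control and 11 UMIs in 9 of 21 *Smo* cKO members, and *Tmx1* had 1 UMI in 1 of 37 control and 9 UMIs in 8 of 21 *Smo* cKO members. The lowest ratios were those of *Yy1*, *Exosc4*, *Lpin2*, *Becn1*, *Trabd*, *Klhl24*, *Tmem60* and *Usp34*, each with 1 UMI in the *Smo* cKO members. *Yy1*, a ubiquitous transcription factor, had 11 UMIs in 9 of 37 control and 1 UMI in 1 of 21 *Smo* cKO members, a log2 ratio of -3.19 (-8.61 to -0.40).

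The summed identity factors did not differ beyond counting error once mixed-profile members were set aside. The 12 transcription factors summed to 4142 and 3971 CPM in single-profile members, a log2 ratio of -0.06 (-0.30 to 0.17), against -0.49 (-0.69 to -0.30) in all members. Of 9 that reached 100 CPM, *Irf7* was at least 2-fold higher and *Ikzf1*, a lymphoid zinc finger factor, at least 2-fold lower in single-profile members. Over all genes, 15.8% were higher and 7.16% lower by as much, so these counts are near the background. *Ikzf1* had 23 and 9 UMIs, a log2 ratio of -1.08 (-2.38 to 0.09). The median log2 ratio was -0.27 against 0.12 over all genes. *Irf8* had a log2 ratio of 0.02 (-0.31 to 0.35) and *Tcf4* of 0.01 (-0.68 to 0.69) in single-profile members. In all members, *Irf8* had -0.64 (-0.92 to -0.36) and *Tcf4* -0.43 (-0.99 to 0.12). The surface and effector genes summed to a log2 ratio of 0.33 (0.17 to 0.49) in single-profile and -0.09 (-0.23 to 0.05) in all members. Of 21, 3 (*Ly6c2*, *Ly6d* and *Upb1*) were at least 2-fold higher and 2 (*Cd4* and *Sh3bgr*) lower in single-profile members, near the 15.8% and 7.16% of all genes, with a median of -0.05. *Upb1* had 5 and 9 UMIs, *Cd4*, a coreceptor that these cells share with T cells, 9 and 3, and *Sh3bgr* 27 and 11, with intervals of -0.61 to 3.05, -3.83 to 0.69 and -2.18 to 0.04. *Ly6c2*, which encodes the monocyte and lymphocyte surface protein Ly6C, had 40 UMIs in 17 of 37 control and 102 UMIs in 19 of 21 *Smo* cKO members. Its level was 483 and 1489 CPM, a log2 ratio of 1.62 (1.08 to 2.19), and after thinning it had a UMI in 30.6% (16.3 to 48.1) of 36 control and 61.9% (38.4 to 81.9) of 21 *Smo* cKO members against 1.25% and 1.80% of the other kept cells. The other kept cells had 5.90 and 9.27 CPM, macrophages 2.81 and 8.93 CPM and conventional dendritic cells 9.72 and 26.9 CPM, each higher in the *Smo* cKO library, while T or NK cells had 819 and 255 CPM and B lineage cells 36.5 and 21.9 CPM. *Ly6d* had a log2 ratio of 1.31 (0.90 to 1.74) from 72 and 148 UMIs, 25% of the latter in 1 cell. After thinning, it was found in 41.7% (25.5 to 59.2) of 36 control and 52.4% (29.8 to 74.3) of 21 *Smo* cKO members. For *Ly6c2* and for *Ly6d*, the intervals of the thinned shares overlapped between the libraries. The intervals of their levels cover counting only, while both genes spread over the cells by more than counting. The spread of *Ly6c2* was 1.96 among control and 5.61 among *Smo* cKO cells, and 20.6% of its *Smo* cKO UMIs lay in 1 cell. In all members the log2 ratios were 0.85 (0.38 to 1.34) for *Ly6c2* and 0.90 (0.54 to 1.28) for *Ly6d*. *Smo* cKO single-profile members were deeper, with a median of 3198 against 2210 UMIs. The part of depth in these ratios was not tested beyond the thinned shares.

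Interferon-stimulated genes were higher in the *Smo* cKO library in every class of cells compared, and by less in the members. Over 31 listed genes, single-profile members summed to 1413 and 2073 CPM, a log2 ratio of 0.55 (0.19 to 0.92), and all members had 0.74 (0.47 to 1.01). The ratio was 2.17 (2.15 to 2.19) in the other kept cells. It was 2.34 (2.06 to 2.63) in 43 and 27 conventional dendritic cells and 1.72 (1.68 to 1.77) in 1129 and 1404 macrophages. It was 2.15 (1.81 to 2.50) in 93 and 173 T or NK cells and 2.09 (1.41 to 2.84) in 7 and 29 B lineage cells. The members' interval lay below each of these intervals, which with 1 library a genotype is a description of these libraries. In the control, members stood above the other kept cells, 1413 against 258 CPM, and in the *Smo* cKO library 2073 against 1165 CPM. Macrophages had 1104 and 3645 CPM and conventional dendritic cells 641 and 3239 CPM. Both of these classes stood below the members in the control and above them in the *Smo* cKO library. T or NK cells had 272 and 1203 CPM and B lineage cells 243 and 1036 CPM. *Ifi27l2a*, an interferon-induced gene, gave 61 out of 117 control and 65 out of 142 *Smo* cKO UMIs of the single-profile members. Without it the ratio was 0.73 (0.22 to 1.26) in single-profile members and 2.11 (2.08 to 2.13) in the other kept cells. It was 1.36 (0.59 to 2.22) in B lineage cells, whose interval then overlapped that of the members. *Isg15*, a ubiquitin-like protein, had 1 UMI in 1 control and 6 UMIs in 4 *Smo* cKO single-profile members, at 12.1 and 87.6 CPM against 14.7 and 166 CPM in the other kept cells. *Irf7*, the factor that amplifies interferon production in these cells, had 3 UMIs in 3 of 37 control and 11 UMIs in 8 of 21 *Smo* cKO members, a log2 ratio of 2.15 (0.23 to 4.63). Of 5 genes of the list that reached 100 CPM, 1 was at least 2-fold higher in single-profile members, where 15.8% of all genes were, so that count is near the background. The list had a median log2 ratio of 0.37 against 0.12 over all genes. In all members, 4 genes of the list reached 100 CPM. Of these, 2 were at least 2-fold higher and 1 lower, where 12.9% and 7.34% of all genes were. The lower one, *Ifi203*, had 14 and 7 UMIs in all members, a log2 ratio of -1.43 (-2.98 to -0.03). RNA of the other cells, in which these genes moved more, can enter droplets, and its part in the members' ratio was not tested.

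**Figure D4:**
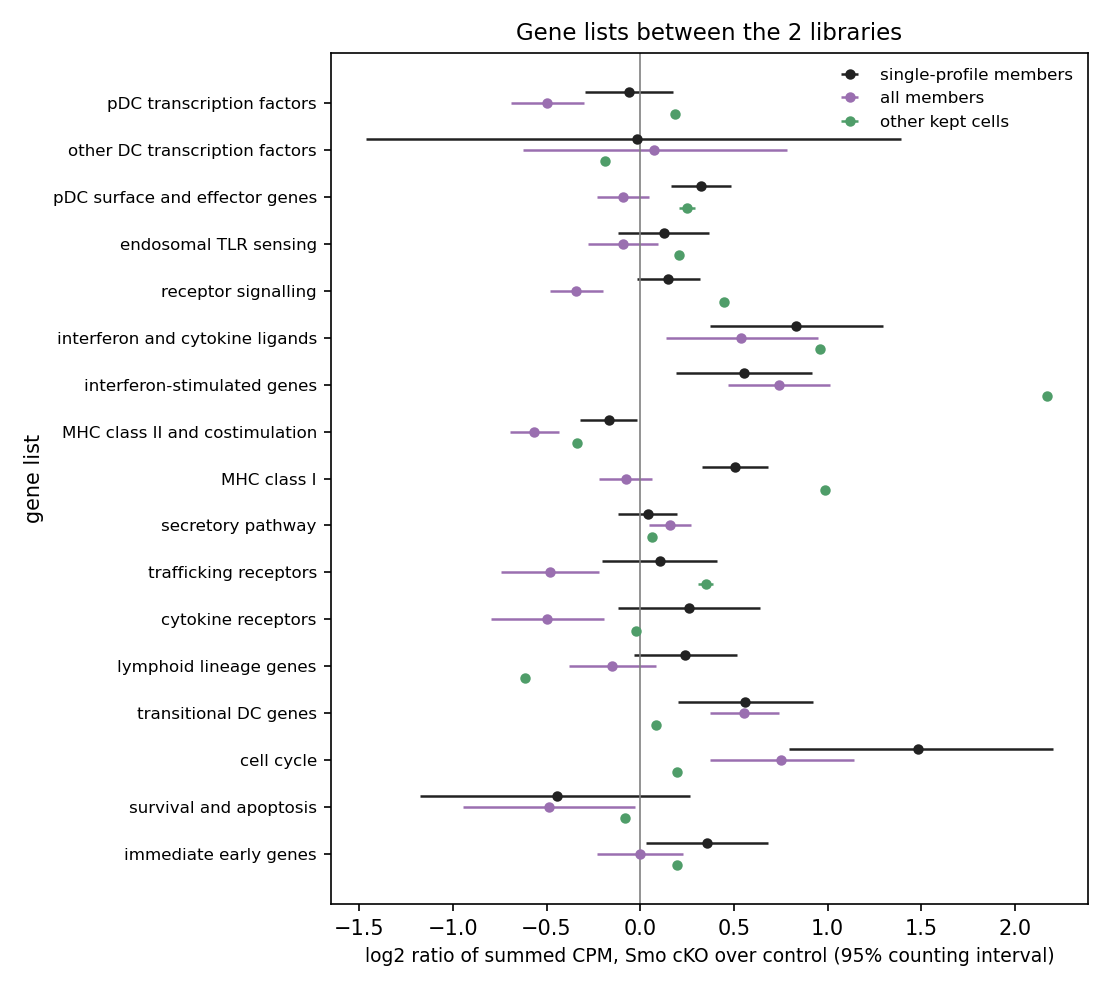
Points give the log2 ratio of summed CPM, *Smo* cKO over control, for each gene list (y axis, with pDC for plasmacytoid dendritic cell and DC for dendritic cell) in single-profile members, all members and the other kept cells, with 95% counting intervals. Interferon-stimulated genes lie at 0.55 in single-profile members and at 2.17 in the other kept cells, and several lists below 0 in all members lie near or above 0 in single-profile members.

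MHC class II genes summed to a log2 ratio of -0.57 (-0.70 to -0.44) in all members and -0.17 (-0.32 to -0.02) in single-profile members, where of 7 genes that reached 100 CPM *H2-Oa* alone was at least 2-fold lower, at 9 and 2 UMIs, against 7.16% of all genes. Without the Cxcl2-rich cell, the single-profile ratio was -0.11 (-0.27 to 0.04). With that cell, *H2-Aa* had -0.45 (-0.85 to -0.06), *H2-Eb1* -0.66 (-1.29 to -0.06) and *Cd74* -0.09 (-0.29 to 0.11) in single-profile members. In all members these genes had -0.81 (-1.14 to -0.49), -0.70 (-1.16 to -0.24) and -0.55 (-0.73 to -0.38). The other kept cells had -0.34 (-0.35 to -0.32) for the list. MHC class I genes had 0.50 (0.33 to 0.68) in single-profile and -0.08 (-0.22 to 0.06) in all members, and 0.98 (0.97 to 1.00) in the other kept cells. *B2m*, the light chain of MHC class I, had 0.65 (0.43 to 0.88) and *H2-K1* 0.68 (0.14 to 1.22) in single-profile members. In all members they had 0.04 (-0.15 to 0.23) and 0.05 (-0.38 to 0.48). None of 6 genes was 2-fold different in single-profile members, where 15.8% of all genes were higher and 7.16% lower by as much. Genes of survival and apoptosis were few in UMIs. *Bcl2l11* (BIM) had 10 UMIs in 7 of 37 control and 2 UMIs in 2 of 21 *Smo* cKO members, *Bbc3* (PUMA) 11 and 2 UMIs, and *Mcl1*, which holds back cell death, 15 and 5. Their log2 ratios were -2.05 (-5.28 to 0.18), -2.19 (-5.40 to 0.01) and -1.31 (-3.13 to 0.22) in single-profile members and -2.13 (-4.21 to -0.44), -2.13 (-4.21 to -0.44) and -1.02 (-1.83 to -0.23) in all members. In single-profile members, the summed list had -0.44 (-1.17 to 0.27), against -0.49 (-0.95 to -0.03) in all members. Cytokine ligands summed to 0.83 (0.37 to 1.30) in single-profile members, and to -0.82 (-1.50 to -0.17) without the Cxcl2-rich cell, so that 1 cell set the direction. All members had 0.54 (0.14 to 0.95). The cell cycle list had 1.48 (0.79 to 2.20) in single-profile and 0.75 (0.37 to 1.14) in all members, and *Top2a* 0 and 7 UMIs, the latter in 2 cells, and the cell with 24 of the 30 UMIs other than *Hmgb2* lies in that sum. Over members with at most 2000 detected genes, and also without members over 3 times the median UMIs, the list had 0.09. Receptor signalling had 0.15 (-0.02 to 0.32), endosomal sensing 0.13 (-0.12 to 0.37), the secretory pathway 0.04 (-0.12 to 0.20), trafficking receptors 0.10 (-0.20 to 0.41), cytokine receptors 0.26 (-0.12 to 0.64) and lymphoid genes 0.24 (-0.03 to 0.52) in single-profile members, and each of these intervals held 0. In all members, receptor signalling had -0.34 (-0.48 to -0.20), endosomal sensing -0.09 (-0.28 to 0.10) and the secretory pathway 0.16 (0.05 to 0.27). Trafficking receptors had -0.48 (-0.74 to -0.22), cytokine receptors -0.50 (-0.80 to -0.19) and lymphoid genes -0.15 (-0.38 to 0.08) there, so that receptor signalling and both receptor lists lay below 0 in all members and above it in single-profile members. Genes of transitional dendritic cells, a kin type between plasmacytoid and conventional dendritic cells, had 0.56 (0.20 to 0.92), and 0.20 (-0.20 to 0.59) without the Cxcl2-rich cell, against 0.55 (0.37 to 0.74) in all members. Immediate early genes had 0.36 (0.03 to 0.68) in single-profile and -0.00 (-0.23 to 0.23) in all members, with *Dusp1* at 3 and 12 UMIs, and other dendritic transcription factors -0.02 (-1.46 to 1.39) and 0.07 (-0.62 to 0.78).

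Markers of other cells within single-profile members were low but present. The choice of cells capped them, since members with more UMIs of any of these lists were set aside as mixed-profile. The rule for members also limited collagen UMIs. Levels below those of the other kept cells are therefore given as a description. *Col1a1*, *Col1a2*, *Col3a1* and the other connective markers summed to 1703 and 1460.1 CPM against 27164 and 22253 CPM in the other kept cells, with *Pdgfra* at 0 in both libraries. Erythroid markers summed to 713 and 1445 CPM, led by *Hbb-bs*, with *Alas2* at 0, and 1678 and 4822 CPM in the other kept cells. Macrophage markers summed to 96.6 and 350.4 CPM, with *C1qc* and *Mrc1* at 0, and 29 of 37 control and 9 of 21 *Smo* cKO cells had no UMI of any of them. *Cd68* was the most abundant, with 5 and 17 UMIs. Neutrophil markers summed to 60.4 and 14.6 CPM with *S100a9*, *Csf3r* and *Ly6g* at 0, and T or NK markers to 0 and 43.8 CPM with *Trac* and *Nkg7* at 0. Conventional dendritic markers summed to 447 and 365 CPM, led by *Clec10a*, with *Xcr1*, *Clec9a* and *Zbtb46* at 0, and endothelial markers to 205 and 175 CPM, led by *Cdh5*, with *Emcn* at 0. Both lists stood above their levels in the other kept cells, 10.2 and 7.69 CPM and 19.2 and 23.0 CPM. The part of any of these lists in the ratios between libraries was not tested.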

How the data were processed

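Repair calluses were digested, depleted of dead cells and loaded on the 10x Chromium platform. The authors aligned reads to mm10 with Cell Ranger 3.0.2 and deposited raw UMI counts for each gene and called cell. The chemistry and strand handling are not given in the sources used here. From these counts, members were found by the rule, and UMIs were summed over cells and divided by their total to give CPM. Log2 ratios have exact conditional Poisson intervals, shares Clopper-Pearson intervals and differences of shares Newcombe intervals. Genes at 100 CPM in at least 1 library were compared at 2-fold, with 0 counts taken as 3 over the group. Cells were thinned to 1000 UMIs without replacement. Other classes were set by UMI rules. B lineage cells had 2 UMIs of *Cd79a* and 1 of another B lineage marker. Conventional dendritic cells had 5 of *H2-Ab1* and 1 of *Flt3* or *Zbtb46*. Macrophages had 3 of *C1qa*, *C1qb* and *C1qc* and 1 of *Csf1r* or *Adgre1*. T or NK cells had 2 of *Cd3d*, *Cd3e*, *Cd3g* and *Nkg7* and none of *Cd79a*. Named genes were the rule markers, 2 to 4 of each list, the 10 most abundant, the 15 furthest above other cells, and the 8 highest and lowest ratios with an interval leaving out 0, without mitochondrial, ribosomal, hemoglobin, immunoglobulin and sex-linked genes in the last 2 groups. Other listed genes are named for their role, after their values were seen, and a few are not reported here. The members and the 19 gene lists were chosen with earlier results of these data known. 1 listed gene is not in the feature list of 31054 entries. Coordinates are GENCODE vM21 on GRCm38. Python 3.11.15, numpy 2.4.6, scipy 1.17.1 and pandas 2.3.3 were used.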

Additional observations from a re-analysis of the deposited data

Results flagged for a closer look

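Leaving aside the rule markers, which chose the cells, 3 summed lists pointed one way in all members and the other way in the other kept cells. For these, both counting intervals left out 0. Plasmacytoid dendritic transcription factors had a log2 ratio (*Smo* cKO over control) of -0.49 in all members and 0.19 in the other kept cells. Receptor signalling genes had -0.34 and 0.45, and trafficking receptors -0.48 and 0.35. The differences were not tested, since each genotype is 1 library. In single-profile members, -0.06 (-0.30 to 0.17), 0.15 (-0.02 to 0.32) and 0.10 (-0.20 to 0.41) stood in their place, and no list met the same condition there.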

How the results depend on the processing

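The share of members was 0.947% and 0.674% (control and *Smo* cKO) among cells with at most 2000 detected genes, and 3.24% and 2% when only cells with a UMI of *Ptprc*, and members with or without one, were counted. In the *Smo* cKO library it was 0.526% with 1 UMI of *Siglech* allowed, 0.221% without mixed-profile members and 0.210% when the Cxcl2-rich cell was left out too. Leaving out members with 3 or more UMIs of another cell type kept 7 control and 1 *Smo* cKO cell, shares of 0.0696% and 0.0105% and a log2 ratio of -2.73, so it was not run for the genotype comparisons. Under the other alternatives the log2 ratio of the shares stayed below 0. At 50 CPM, 496 genes were at least 2-fold higher and 373 lower, and at 200 CPM 74 and 34. The log2 ratio of surface and effector genes was 0.10 as a mean over cells, 0.25 under 2000 genes and also without members over 3 times the median UMIs, 0.17 with at least 3 UMIs of *Siglech*, 0.33 without mixed-profile members and 0.38 without the Cxcl2-rich cell too. In the same order, MHC class II genes had -0.17, -0.15, -0.34, -0.17 and -0.11. The log2 ratio of *Irf8* over the other kept cells was 7.62 and 7.11 under 2000 genes and 7.70 and 7.31 without mixed-profile members, and 7.65 in the 7 control cells with under 3 UMIs of another cell type. That of *Tcf4* in the *Smo* cKO library was 1.67 and 1.92. Thinned, *Irf8* was found in 83.7% and 64.5% and *Tcf4* in 32.6% and 48.4% of all members. Some lists changed direction from their value over all members. Receptor signalling had 0.03 as a mean over cells, 0.15 under 2000 genes, without the deepest members or without mixed-profile members, and 0.17 without the Cxcl2-rich cell too. Cytokine receptors had 0.03, 0.22, 0.26 and 0.31. Trafficking receptors had 0.05, 0.10 and 0.14, the secretory pathway -0.03 under 2000 genes, and cytokine ligands -0.82 without the Cxcl2-rich cell. Interferon-stimulated genes kept their direction under every alternative run, from 0.52 to 0.74. Of the other values for lists, 70 stayed within the counting interval of the value over all members, 39 left it, and 17 changed direction from an interval that left out 0, as given above. MHC class I, lymphoid, endosomal sensing and other dendritic factor lists also changed sign, from intervals that held 0. The settings of 20 UMIs and of the Cxcl2-rich cell were added after the data were seen. No paired analysis was possible because each genotype is 1 library. With 82804 and 68490 UMIs, a gene under 43.8 CPM may be missed in single-profile members.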
